A study of Homo sapiens with 24 samples.

Results

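The 10 genes HMOX1, HMOX2, BLVRA, BLVRB, FTH1, FTL, TFRC, SLC40A1, SLC11A2 and SLC48A1 break down heme and handle the iron it releases. They were taken by symbol from the 28307 genes of the count table, and all 10 were found there once. The group was chosen by a measured value, since HMOX1 had the highest log2 fold change under drug in SUM159 ALDHbr cells, of the called genes whose mean log2 CPM was 1 or more, and that contrast is therefore described here without a test. HMOX1 stood at 1.89 on that scale, just ahead of CA9 at 1.81 and KLF2 at 1.18, which have other functions and were left out.

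RNA was sequenced from the breast cancer line SUM159 and the colon cancer line SW620. Attached cells were treated for 30 h with nifuroxazide (NIF), a nitrofuran antibiotic, or with DMSO, and were then sorted by ALDH activity into ALDHbr cells, the population enriched in cancer stem cells (CSC), and ALDHneg cells. The 8 groups were SUM159 ALDHbr, SUM159 ALDHneg, SW620 ALDHbr and SW620 ALDHneg cells under NIF and the same 4 under DMSO, with 3 libraries in each from independent experiments. Each line stands for its tumor type alone, every group was sorted after treatment, and the dose of NIF used for sequencing is not given in the sources used here.

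Heme oxygenases open the heme ring, which yields iron, carbon monoxide and biliverdin, and biliverdin reductases turn biliverdin into bilirubin. Free iron is stored in ferritin, a shell of heavy (FTH1) and light (FTL) chains, and leaves the cell through ferroportin (SLC40A1), whereas transferrin-bound iron enters through the transferrin receptor (TFRC), SLC11A2 (DMT1) moves it out of endosomes and SLC48A1 (HRG1) carries heme across lysosomal and endosomal membranes. HMOX1, FTH1 and FTL are known targets of NRF2, and BACH1 is a heme-binding repressor of HMOX1. Iron regulatory proteins bind hairpins in the untranslated ends of several of these transcripts, the iron-responsive elements, and control translation of those with a hairpin at the 5′ end and stability of those with hairpins at the 3′ end.

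These hairpins are printed because iron can act through them after transcription, in a way that counts of ferritin and ferroportin RNA do not show. A search of the canonical transcript of each gene (GENCODE release 44, lifted to GRCh37) for an unpaired C, a stem of 5 pairs (G and T allowed to pair) and the loop CAGTGN found 7 elements in 4 of the genes, which are given below 5′ to 3′ with the unpaired C and the loop in capitals and with 5 flanking bases on either side.
FTH1, 5′ UTR, transcript bases 34 to 60: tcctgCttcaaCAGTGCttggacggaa
FTL, 5′ UTR, transcript bases 28 to 54: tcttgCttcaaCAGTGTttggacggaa
SLC40A1, 5′ UTR, transcript bases 99 to 125: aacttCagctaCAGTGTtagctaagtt
TFRC, 3′ UTR, transcript bases 3290 to 3316: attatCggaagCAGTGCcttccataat
TFRC, 3′ UTR, transcript bases 3694 to 3720: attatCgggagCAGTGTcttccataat
TFRC, 3′ UTR, transcript bases 3759 to 3785: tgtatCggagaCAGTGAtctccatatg
TFRC, 3′ UTR, transcript bases 3806 to 3832: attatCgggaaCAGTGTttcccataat
Among 19894 canonical transcripts of protein-coding genes, 18 held such an element in the 5′ UTR (0.0905%) and 122 in the 3′ UTR (0.613%). The remaining 6 transcripts held none of this exact form, which says nothing of other isoforms (SLC11A2 is known to have one with such an element at its 3′ end) or of other forms of the hairpin.

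BLVRB and FTL share a chromosome, as do SLC11A2 and SLC48A1. In RefSeq on GRCh38.p14, the build family that the submitters' processing notes name, HMOX1 is at chr22:35381096-35394207, HMOX2 at chr16:4474736-4510347, BLVRA at chr7:43758122-43807342, BLVRB at chr19:40447768-40465745, FTH1 at chr11:61964285-61967634, FTL at chr19:48965309-48966879, TFRC at chr3:196049284-196082090, SLC40A1 at chr2:189560590-189580786, SLC11A2 at chr12:50952263-51028886 and SLC48A1 at chr12:47753934-47782751. Starts of 8 of the 10 genes had a RefSeq promoter window of 300 bases, 12 windows in all. HMOX1 and FTH1 had no window, so their promoters were not searched. None of the 12 held the core TGACNNNGC of the antioxidant response element on either strand, which 13.3% of 35116 windows of the same length held, and none held TGAGTCA, the AP-1 core, which 4.95% held. The E-box CACGTG was in 1 of the 12, that of HMOX2, and in 7.26% of all windows. Beside these shares so few windows show nothing particular to these genes, and sequence outside the windows was not searched. FTH1 overlaps BEST1, HMOX2 overlaps NMRAL1, SLC11A2 overlaps HIGD1C, and SLC48A1 overlaps HDAC7 and RAPGEF3, and their counts may hold reads of those neighbors, because how reads in overlaps were assigned is not given in the sources used here. The ferritin genes have processed copies elsewhere in the genome, of which FTH1P3 held 2 to 28 counts per library and FTLP10 none.

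Total counts per library ran from 30253187 to 43127948 with a median of 36520935, and, apart from SLC40A1 in SUM159 and BLVRA in SW620 (59 to 152 counts), every member had at least 575 counts in every library. Levels are given as CPM, counts scaled to 1e6 of the TMM-adjusted library total. Markers of the labelled lines were present, with 6 colon epithelial markers summing to 2019 to 2652 CPM in SW620 and 6 mesenchymal markers to 6795 to 8838 CPM in SUM159. In SUM159 the colon markers summed to 0.174 to 0.699 CPM in 11 libraries and to 7.64 CPM in ALDHbr DMSO replicate 3, where EPCAM had 87 counts, KRT20 75 and CDH1 68. ALDH1A1, the marker of the sort, ran from 97.3 to 206 CPM in SUM159 ALDHbr and from 0.281 to 0.591 CPM in SUM159 ALDHneg libraries, and in SW620 it was higher in ALDHbr than in ALDHneg libraries under the same treatment. Markers of red cells and macrophages summed to 0.607 to 5.41 CPM. Under NIF some markers moved in SW620, with ALDH1A1 lower in ALDHbr and ALDHneg cells (-0.46 and -0.71 on the log2 scale, adjusted p = 3.10e-06 and 3.64e-08) and the mesenchymal markers summing to 15.6 to 18.6 CPM under DMSO and 34.5 to 38.6 CPM under NIF in ALDHbr cells, and to 33.0 to 36.5 and 49.6 to 53.5 CPM in ALDHneg cells. Of these mesenchymal markers AXL was higher and FN1 lower in both populations, and the part of these changes in the results below was not tested. In bulk RNA, fewer cells with a transcript and less RNA in each cell cannot be told apart.

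HMOX1, FTH1, FTL and SLC48A1 were higher and SLC11A2 lower under NIF in both populations of SW620, whereas TFRC fell in SW620 and did not pass the test in SUM159 ALDHneg cells. In each of the 3 comparisons of NIF with DMSO that did not choose the group, HMOX1 was the member with the largest change. In SUM159 ALDHneg cells 2 of the 9 members tested were higher (HMOX1 and FTL) and 1 lower (SLC11A2), against 1.1% and 2.2% of 14953 genes. In SW620 ALDHbr cells 5 of 10 were higher (HMOX1, SLC48A1, FTH1, FTL and BLVRB) and 3 lower (TFRC, SLC11A2 and SLC40A1), against 21.4% and 21.9% of 13953 genes. In SW620 ALDHneg cells the same 5 were higher and the same 3 lower, against 22.3% and 22.7%. HMOX2 and BLVRA passed in none of these tests. The median log2 fold change of the members was 0.24 in SUM159 ALDHbr, 0.23 in SUM159 ALDHneg, 0.17 in SW620 ALDHbr and 0.24 in SW620 ALDHneg cells, and over all genes it was -0.0029, 0.0033, -0.0070 and -0.0076.

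**Figure D1:**
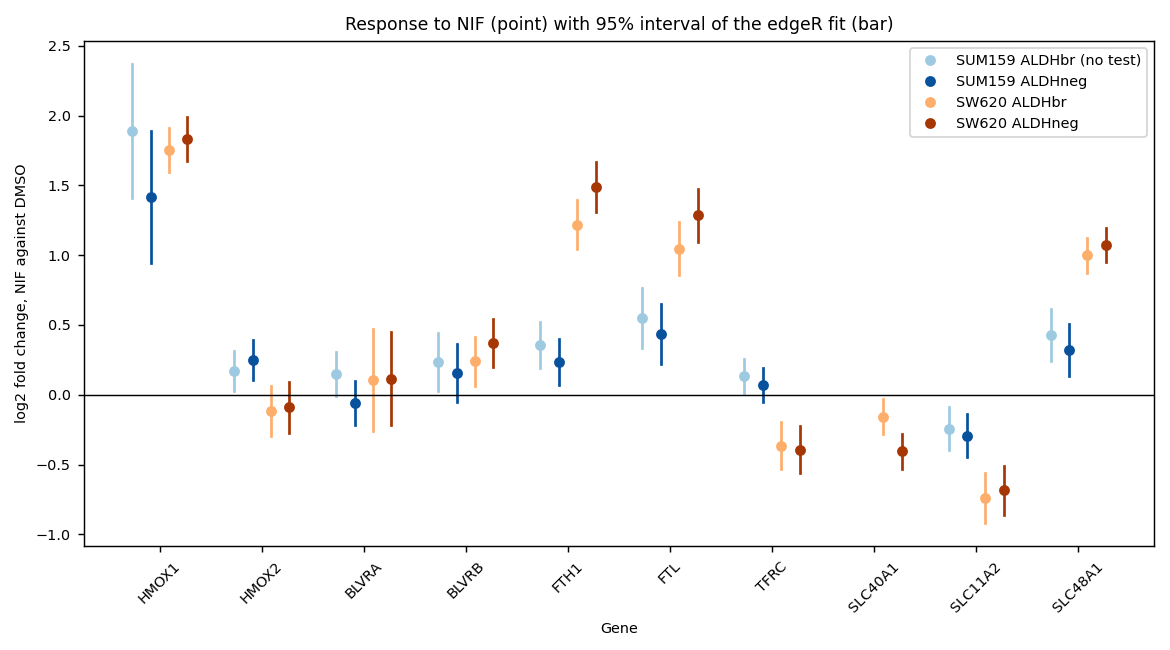
The log2 fold change of each of the 10 genes under NIF (vertical axis) with its 95% interval is drawn for 4 comparisons, with SUM159 in blue and SW620 in orange. HMOX1 lies between 1.42 and 1.89 in all 4, whereas FTH1, FTL and SLC48A1 lie higher in SW620 than in SUM159 and TFRC lies below 0 in SW620 alone; SLC40A1 has no SUM159 value.

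HMOX1 (Entrez Gene 3162) codes for heme oxygenase 1, the inducible form of the enzyme. In SUM159 ALDHbr cells it stood at 198, 298 and 164 CPM under DMSO and at 789, 1024 and 639 CPM under NIF in replicates 1 to 3. The NIF libraries all lay above the DMSO libraries, and replicate 2 was the highest and replicate 3 the lowest under both treatments. Matched by replicate number the ratio of NIF to DMSO was 3.99, 3.44 and 3.90, and the fitted log2 fold change that chose the group was 1.89 (standard error, SE, 0.22). It was 1.72 without DMSO replicate 3, the library with colon markers, and ran from 1.70 to 2.17 over the libraries left out one at a time, with 2.17 reached without DMSO replicate 2.

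In ALDHneg cells of SUM159, which share no library with that contrast, HMOX1 was at 335, 412 and 243 CPM under DMSO and at 945, 955 and 745 CPM under NIF. The groups did not overlap, and the log2 fold change was 1.42 (SE 0.22, adjusted p = 0.00249, edgeR quasi-likelihood test). It stayed past the threshold with any of the 6 libraries left out. This test was not independent of the contrast that chose the group. SUM159 libraries of the same replicate number were correlated across groups (r from 0.125 to 0.451). The fit also took its spread from all 12 SUM159 libraries, the ALDHbr ones included.

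SW620 held much less HMOX1 RNA and also raised it under NIF. Under DMSO the ALDHbr libraries were at 26.8, 25.8 and 26.6 CPM and the ALDHneg libraries at 23.2, 25.5 and 28.1 CPM. Under NIF they were at 82.1, 90.1 and 95.2 CPM and at 92.0, 90.1 and 92.3 CPM. The log2 fold change was 1.75 in ALDHbr cells (SE 0.07, adjusted p = 3.69e-10) and 1.83 in ALDHneg cells (SE 0.07, adjusted p = 1.99e-10, same edgeR test), and the difference of the responses was -0.08 with a 95% interval from -0.30 to 0.14. Even under NIF, no SW620 library reached the lowest SUM159 library under DMSO, which was at 164 CPM.

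HMOX2 (Entrez Gene 3163), the constitutive heme oxygenase, passed in none of the NIF tests. It ran from 59.6 to 69.5 CPM in the 6 SUM159 DMSO libraries and from 70.5 to 79.5 CPM in the 6 SUM159 NIF libraries, and was higher under NIF in all 6 replicate-matched ratios, which ran from 1.09 to 1.26. In ALDHneg cells of SUM159 the log2 fold change of 0.25 (SE 0.07) missed the threshold (adjusted p = 0.0609) and passed with the replicate number as a block (adjusted p = 0.00212), with DESeq2 (adjusted p = 0.0166) and under 3 other settings of scaling or filter. In SW620 it ran from 77.5 to 110 CPM under DMSO and from 76.4 to 105 CPM under NIF, with log2 fold changes of -0.11 and -0.09 and adjusted p of 0.297 and 0.409 in ALDHbr and ALDHneg cells. Leaving out SW620 ALDHbr DMSO replicate 2, the library farthest from its group, took the ALDHbr value to -0.19 and past the threshold.

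The balance of the oxygenases, per kilobase of the canonical transcript, differed between the lines. Under DMSO the level of HMOX1 in SUM159 was 141 ± 44.9 CPM per kb in ALDHbr and 212 ± 54.6 CPM per kb in ALDHneg cells (SD, n = 3), above HMOX2 at 40.5 ± 1.83 and 37.7 ± 3.21 CPM per kb. In SW620 it was 17.0 ± 0.32 and 16.5 ± 1.60 CPM per kb, below HMOX2 at 61.8 ± 6.63 and 49.9 ± 3.14 CPM per kb. NIF brought HMOX1 in SW620 ALDHbr cells to 57.4 ± 4.23 CPM per kb, beside HMOX2 at 57.3 ± 5.24 CPM per kb.

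**Figure D2:**
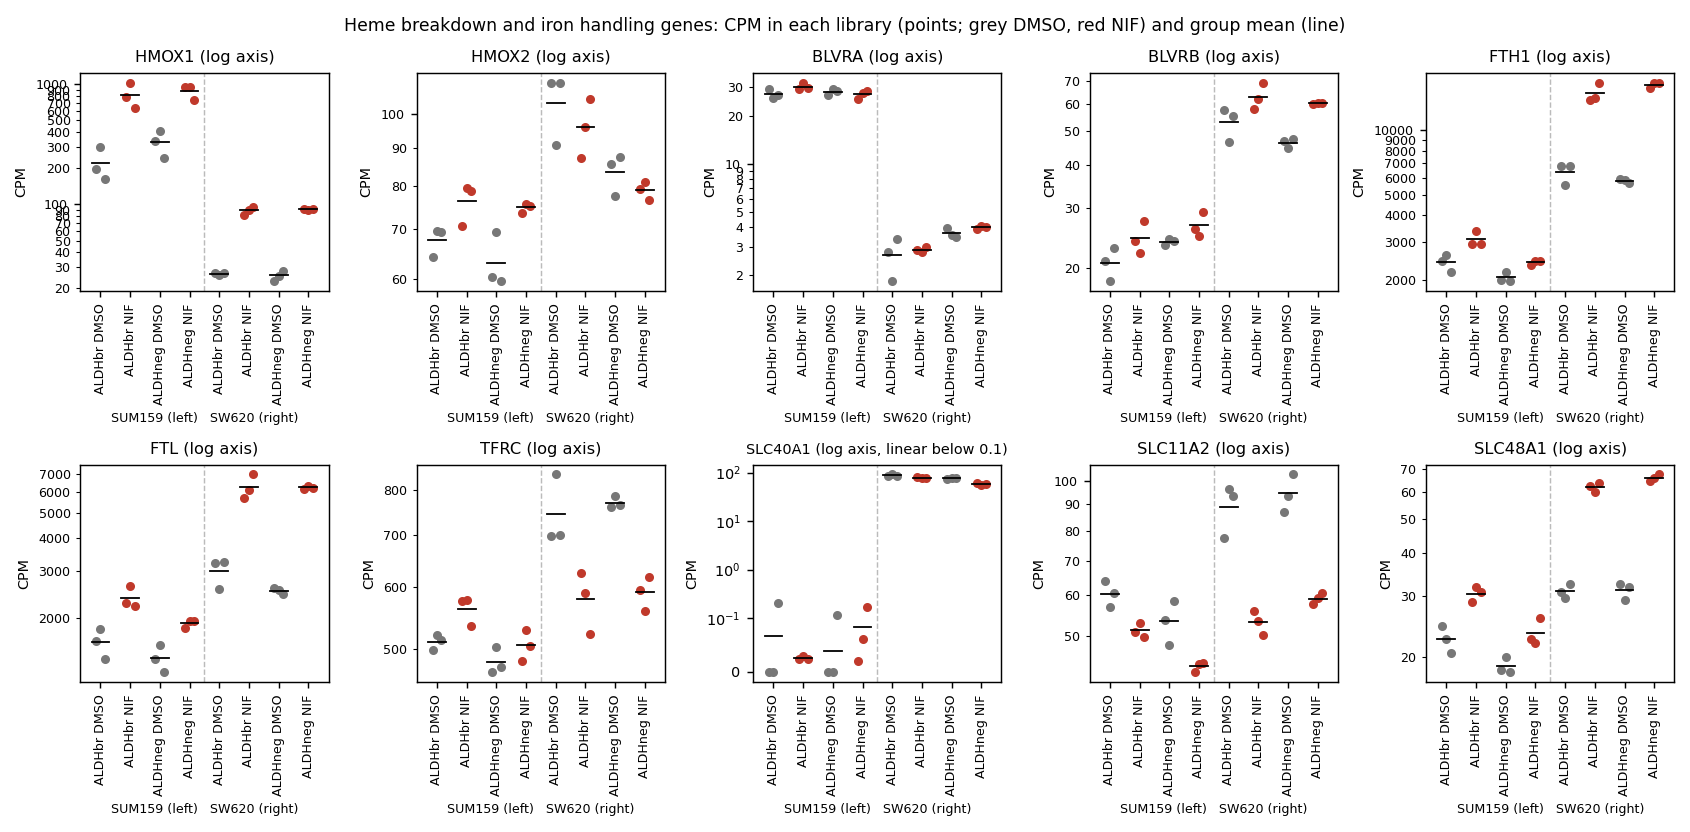
Each panel shows 1 gene, with CPM on a log axis (for SLC40A1, linear below 0.1 CPM), 3 libraries per group as points (grey DMSO, red NIF) and the group mean as a line; SUM159 is left and SW620 right of the dashed line. HMOX1 and BLVRA are higher in SUM159 and SLC40A1 is near 0 there, and the red points of FTH1, FTL and SLC48A1 lie farthest from the grey ones in SW620.

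The biliverdin reductases differed more between the lines than under NIF. BLVRA (Entrez Gene 644), the biliverdin-IXα reductase, ran from 25.2 to 31.9 CPM in the 12 SUM159 libraries and from 1.85 to 4.05 CPM in the 12 SW620 libraries. It passed in none of the NIF comparisons tested, with log2 fold changes of -0.06, 0.11 and 0.12 in SUM159 ALDHneg, SW620 ALDHbr and SW620 ALDHneg cells. BLVRB (Entrez Gene 645), the flavin and biliverdin-IXβ reductase, lay the other way round, at 18.4 to 29.1 CPM in SUM159 and at 44.7 to 69.1 CPM in SW620.

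BLVRB was modestly higher under NIF in SW620. In ALDHneg cells it stood at 46.9, 44.7 and 47.6 CPM under DMSO and at 60.1, 60.5 and 60.6 CPM under NIF, without overlap (log2 fold change 0.37, SE 0.08, adjusted p = 0.00178). In ALDHbr cells it was 53.3 ± 5.97 CPM under DMSO and 63.1 ± 5.60 CPM under NIF (SD, n = 3; log2 fold change 0.24, SE 0.08, adjusted p = 0.0273). The ALDHbr call was lost without NIF replicate 2 (0.25) or NIF replicate 3 (0.17), and in a fit of the compared groups alone (adjusted p = 0.102). In SUM159 ALDHneg cells the value was 0.16 (adjusted p = 0.457).

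SLC48A1 (Entrez Gene 55652), which returns heme from lysosomes to the cytosol, was among the members that rose most in SW620. The ALDHbr libraries were at 30.7, 29.6 and 32.4 CPM under DMSO and at 62.3, 59.9 and 63.5 CPM under NIF. The ALDHneg libraries were at 32.5, 29.3 and 31.7 CPM under DMSO and at 64.6, 65.8 and 67.4 CPM under NIF. The groups were far apart in both, with log2 fold changes of 1.00 (SE 0.06, adjusted p = 1.03e-08) and 1.07 (SE 0.06, adjusted p = 3.98e-09).

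In SUM159 the same gene moved less. It was at 22.5 ± 2.07 CPM under DMSO and 30.4 ± 1.55 CPM under NIF in ALDHbr cells (SD, n = 3), a log2 fold change of 0.43. In ALDHneg cells it was at 18.3, 19.9 and 18.1 CPM under DMSO and at 22.5, 21.9 and 25.9 CPM under NIF, without overlap. That log2 fold change of 0.32 (SE 0.09) missed the threshold (adjusted p = 0.0622) and passed with the replicate number as a block (adjusted p = 0.0115), with DESeq2 (adjusted p = 0.0173), without a filter (adjusted p = 0.0429) and with all 24 libraries (adjusted p = 0.0128).

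The ferritin chains were the most abundant members and their log2 fold changes under NIF were larger in SW620 than in SUM159. FTH1 (Entrez Gene 2495), the heavy chain that oxidizes iron as it enters the shell, was at 5919, 5831 and 5650 CPM under DMSO and at 15824, 16628 and 16603 CPM under NIF in SW620 ALDHneg cells. In SW620 ALDHbr cells it was at 6779, 5554 and 6804 CPM under DMSO and at 13874, 14175 and 16596 CPM under NIF. The log2 fold change was 1.49 (SE 0.08, adjusted p = 5.66e-09) and 1.22 (SE 0.08, adjusted p = 4.94e-08). In SUM159 FTH1 was at 2413 ± 219 CPM under DMSO and 3097 ± 254 CPM under NIF in ALDHbr cells, and at 2052 ± 108 and 2411 ± 66.0 CPM in ALDHneg cells (SD, n = 3). The NIF libraries of either SUM159 population lay above its DMSO libraries, but in ALDHneg cells the log2 fold change of 0.23 did not pass (adjusted p = 0.129). It passed with the replicate number as a block (adjusted p = 0.00252) and with DESeq2 (adjusted p = 0.0358).

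FTL (Entrez Gene 2512), the light chain that helps to form the iron core, followed its partner. In SW620 ALDHneg cells it was at 2595, 2549 and 2459 CPM under DMSO and at 6153, 6313 and 6186 CPM under NIF (log2 fold change 1.29, SE 0.09, adjusted p = 4.95e-08). In SW620 ALDHbr cells it was at 3228, 2570 and 3258 CPM under DMSO and at 5675, 6083 and 6961 CPM under NIF (log2 fold change 1.04, SE 0.09, adjusted p = 4.56e-07). Neither pair of groups overlapped. In ALDHneg cells of SUM159 FTL was at 1405, 1581 and 1253 CPM under DMSO and at 1832, 1953 and 1953 CPM under NIF, with a log2 fold change of 0.44 (SE 0.10, adjusted p = 0.0268).

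Apart from that of HMOX1, the calls in SUM159 ALDHneg cells depended on single libraries in the fit without the replicate block. The blocked fit was not run with a library left out. With the replicate number as a block 6 of 9 members passed, 5 higher (HMOX1, HMOX2, FTH1, FTL and SLC48A1) and 1 lower (SLC11A2), and in that fit 6.1% and 7.08% of all genes were higher and lower. Without the block, leaving out any of the 3 NIF libraries or DMSO replicate 1 or 3 left 1 call, HMOX1, and FTL then had log2 fold changes of 0.36 to 0.47 that did not pass. In the fits that left 1 call, 0.288% to 0.871% of all genes were higher and 0.932% to 1.62% lower. Without DMSO replicate 2 there were 4 calls, HMOX2 (0.31) among them, and 1.44% and 2.38% of all genes were higher and lower.

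Together the chains made up 0.801% ± 0.0170 of all counts in SW620 ALDHneg cells under DMSO and 2.07% ± 0.0436 under NIF, and 0.892% ± 0.0875 and 1.96% ± 0.171 in SW620 ALDHbr cells (SD, n = 3). In SUM159 the share went from 0.426% ± 0.0384 to 0.573% ± 0.0402 in ALDHbr and from 0.373% ± 0.0187 to 0.465% ± 0.0107 in ALDHneg cells. The ratio of FTH1 to FTL counts was 1.46 to 1.49 on average under DMSO and 1.26 to 1.30 under NIF in SUM159, and 2.12 to 2.29 under DMSO and 2.39 to 2.63 under NIF in SW620. The heavy chain thus gained on the light chain in SW620 and lost ground to it in SUM159, a contrast that was not tested.

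**Figure D3:**
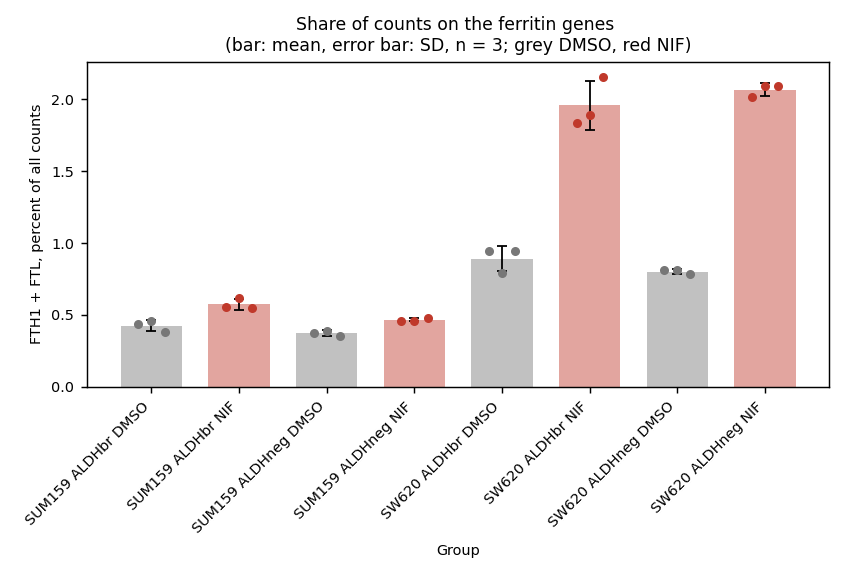
Bars give the mean share of all counts that fell on FTH1 and FTL in each of the 8 groups, in percent, with error bars for the SD and points for the 3 libraries. The SW620 NIF libraries lie between 1.84% and 2.15%, above every other library, and the SUM159 NIF libraries between 0.458% and 0.619%.

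TFRC and SLC11A2, which bring iron into the cytosol, fell in SW620. TFRC (Entrez Gene 7037) was at 698, 838 and 700 CPM under DMSO and at 627, 590 and 523 CPM under NIF in ALDHbr cells. In ALDHneg cells it was at 761, 785 and 764 CPM under DMSO and at 594, 559 and 618 CPM under NIF. All NIF libraries were below all DMSO libraries in both populations, with log2 fold changes of -0.36 (SE 0.08, adjusted p = 0.00173) and -0.39 (SE 0.08, adjusted p = 0.000893). Each of these calls held with any of the libraries left out. In SUM159 TFRC was at 511 ± 11.3 CPM under DMSO and 563 ± 24.0 CPM under NIF in ALDHbr cells, and at 481 ± 18.9 and 505 ± 23.6 CPM in ALDHneg cells (SD, n = 3), where the log2 fold change was 0.07 (adjusted p = 0.602, 95% interval from -0.05 to 0.19).

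SLC11A2 (Entrez Gene 4891) fell in both lines. In SW620 ALDHbr cells it was at 77.4, 96.4 and 93.5 CPM under DMSO and at 56.1, 53.6 and 50.3 CPM under NIF. In SW620 ALDHneg cells it was at 87.2, 93.5 and 103 CPM under DMSO and at 57.6, 59.2 and 60.5 CPM under NIF. The log2 fold changes were -0.74 (SE 0.08, adjusted p = 7.06e-06) and -0.68 (SE 0.08, adjusted p = 1.20e-05). In ALDHneg cells of SUM159 it was at 53.9, 48.1 and 58.5 CPM under DMSO and at 42.7, 44.3 and 44.4 CPM under NIF, a log2 fold change of -0.29 (SE 0.07, adjusted p = 0.0421). The SUM159 call was lost with library-size scaling (adjusted p = 0.0641), with the compared groups fitted alone (adjusted p = 0.0998) and on leaving out the libraries that also ended the FTL call (-0.31 to -0.22).

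SLC40A1 (Entrez Gene 30061), the exporter of iron, was counted almost wholly in SW620. It had 25 counts in the 12 SUM159 libraries together, with 0 counts in 4 of them and a highest count of 8, and 30996 counts in the 12 SW620 libraries. The highest SUM159 count was that of ALDHbr DMSO replicate 3, the library that also held colon markers, and their part in it was not tested. ALDHneg replicate 3 had 5 counts under DMSO and 6 under NIF with 0.506 and 0.281 CPM of colon markers, and the remaining SUM159 libraries had 0 to 2 counts. The gene did not pass the filter on low counts in SUM159 and has no NIF result there.

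In SW620 ALDHneg cells SLC40A1 was at 74.5, 77.8 and 77.2 CPM under DMSO and at 61.9, 55.0 and 57.4 CPM under NIF, a log2 fold change of -0.41 (SE 0.06, adjusted p = 6.62e-05). In ALDHbr cells it was at 86.8, 91.4 and 82.9 CPM under DMSO and at 81.4, 77.6 and 75.4 CPM under NIF, and the log2 fold change of -0.16 (SE 0.06) lay close to the threshold (adjusted p = 0.0413). The ALDHbr call was lost without NIF replicate 2 or 3 or DMSO replicate 1 or 2, with values of -0.16 to -0.11. It was also lost without a filter (adjusted p = 0.106), with the compared groups alone (adjusted p = 0.124), and with all 24 libraries in the fit (adjusted p = 0.340).

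The ALDHbr and ALDHneg cells were compared under DMSO to ask whether the sorted populations start from different levels. In SUM159 2 of 8 members tested were higher in ALDHbr cells (FTH1 and SLC48A1) and 0 lower, against 10.7% and 12.3% of genes. The log2 fold change was 0.23 for FTH1 (SE 0.08, adjusted p = 0.0418) and 0.26 for SLC48A1 (SE 0.09, adjusted p = 0.0441). Both calls were lost on leaving out ALDHbr replicate 1 or 2 or ALDHneg replicate 1 or 3, with values of 0.18 to 0.22 and of 0.19 to 0.27. With the replicate number as a block 5 members passed, FTH1, FTL, SLC48A1 and SLC11A2 higher and BLVRB lower in ALDHbr cells, against 17.9% and 18.2% of all genes in that fit. HMOX1, which was not tested here because its SUM159 ALDHbr values chose the group, was at 220 ± 69.8 CPM in ALDHbr and 330 ± 84.8 CPM in ALDHneg cells (SD, n = 3), with overlapping libraries and ALDHbr below ALDHneg in each replicate number.

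In SW620 1 of 10 members was higher in ALDHbr cells under DMSO (HMOX2) and 0 lower, against 5.45% and 5.86%. HMOX2 was at 110, 90.7 and 110 CPM in ALDHbr and at 85.5, 77.5 and 87.4 CPM in ALDHneg cells, which gave a log2 fold change of 0.31 (SE 0.08, adjusted p = 0.0318). The call was lost on leaving out ALDHbr replicate 1 or 3 or any ALDHneg replicate, with values of 0.25 to 0.34. Without ALDHbr replicate 2, in which FTH1, FTL and BLVRB were all lowest of the 3, those 3 genes and HMOX2 passed, with values of 0.21 for FTH1, 0.34 for FTL and 0.28 for BLVRB. Leaving out that library raised the calls over all genes too, to 18.6% and 20.2%. Without ALDHbr replicate 3 BLVRA passed, at -0.64.

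In the test of whether the SW620 populations responded differently to NIF, 0 of 10 members were higher and 0 lower, against 0.00717% and 0% of 13953 genes. At an unadjusted p under 0.05 there were 2 members, FTH1 with a difference of -0.27 (95% interval from -0.51 to -0.02) and SLC40A1 with 0.25 (0.07 to 0.43), and DESeq2 called 0. The intervals of the other 8 included 0, and the interval of HMOX1 bounded any difference at 0.30 on the log2 scale. In SUM159 the difference was not tested, because it uses the contrast that chose the group, and HMOX1 had log2 fold changes of 1.89 and 1.42 in ALDHbr and ALDHneg cells.

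The lines were compared in ALDHneg cells under DMSO. Of the 9 members that passed the filter on low counts in both lines, 7 were higher and 2 lower in SW620, against 38.5% and 42.7% of 16271 genes. SLC40A1 entered this fit only through SW620, where it is high, and is not counted. The lower members were HMOX1, by a log2 difference of -3.69 (SE 0.20, adjusted p = 1.82e-14), and BLVRA, by -2.94 (SE 0.11, adjusted p = 1.09e-17). Among the higher members FTH1 stood 1.50 higher on the log2 scale (SE 0.08, adjusted p = 2.97e-14), BLVRB 0.96, FTL 0.84, SLC11A2 0.82, SLC48A1 0.73, TFRC 0.68 and HMOX2 0.41.

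In CPM per kb of transcript, the order under DMSO in SUM159 ALDHneg cells was FTH1 at 1706 ± 89.8, FTL at 1622 ± 189, HMOX1 at 212 ± 54.6, TFRC at 96.0 ± 3.78, HMOX2 at 37.7 ± 3.21, BLVRB at 29.9 ± 0.672, BLVRA at 26.3 ± 1.14, SLC11A2 at 12.9 ± 1.25, SLC48A1 at 6.30 ± 0.332 and SLC40A1 at 0.0115 ± 0.0199 (SD, n = 3). FTH1 and FTL lay within their spread of each other. In SW620 ALDHneg cells it was FTH1 at 4821 ± 114, FTL at 2910 ± 79.4, TFRC at 154 ± 2.63, BLVRB at 58.0 ± 1.91, HMOX2 at 49.9 ± 3.14, SLC40A1 at 23.0 ± 0.539, SLC11A2 at 22.9 ± 1.91, HMOX1 at 16.5 ± 1.60, SLC48A1 at 10.5 ± 0.562 and BLVRA at 3.41 ± 0.240. There SLC40A1 and SLC11A2 lay within their spread, and HMOX1 had moved from the third place to the eighth.

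The lines also differed in the response of ALDHneg cells to NIF, which uses the same DMSO libraries. In SW620 minus SUM159 3 of the 9 members that passed the filter in both lines had a higher response (FTH1, SLC48A1 and FTL). A lower response was called for 3 (TFRC, SLC11A2 and HMOX2), against 11.9% of genes higher and 10.5% lower. SLC40A1, which entered this fit only through SW620, is not counted. The difference in log2 fold change was 1.26 for FTH1 (SE 0.12, adjusted p = 2.18e-08), 0.86 for FTL (SE 0.14, adjusted p = 7.27e-05) and 0.76 for SLC48A1 (SE 0.10, adjusted p = 7.28e-06). It was -0.45 for TFRC (SE 0.10, adjusted p = 0.00151), -0.38 for SLC11A2 (SE 0.11, adjusted p = 0.0148) and -0.33 for HMOX2 (SE 0.11, adjusted p = 0.0367). The call of HMOX2 was lost for 8 of the 12 libraries left out one at a time, with values of -0.33 to -0.29, and that of SLC11A2 without SW620 DMSO replicate 3 (-0.32).

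HMOX1 was the member whose starting level differed most in the downward direction and whose response did not pass the test of a difference. Its difference of 0.42 had a 95% interval from -0.12 to 0.95 (adjusted p = 0.282). With the replicate number as a block, nested in the line, the difference was 0.39 and passed (adjusted p = 0.0133), so the responses cannot be called equal. In ALDHneg cells the replicate-matched ratios of HMOX1 were 2.32 to 3.07 in SUM159 and 3.28 to 3.97 in SW620, without overlap. Those of FTH1 were 1.12 to 1.24 in SUM159 and 2.67 to 2.94 in SW620.

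**Figure D4:**
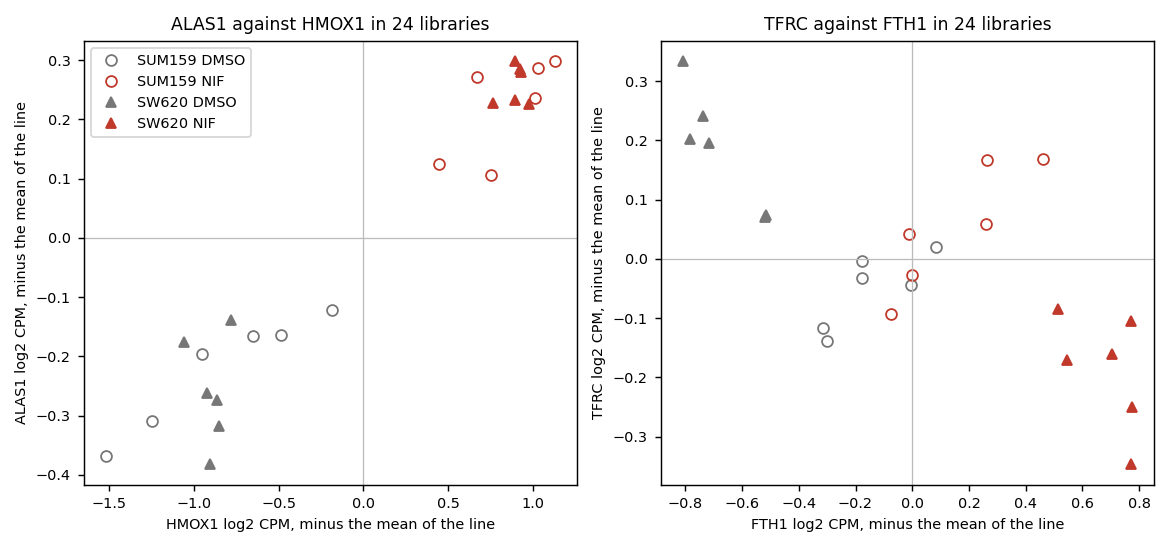
Each point is 1 of 24 libraries, placed by its log2 CPM minus the mean of its line, with SUM159 as circles, SW620 as triangles, DMSO in grey and NIF in red. On the left ALAS1 rises with HMOX1 in both lines alike (r = 0.97), and on the right TFRC falls as FTH1 rises in SW620 (r = -0.94) and rises with it in SUM159 (r = 0.90).

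Genes whose pattern was most like that of HMOX1 were ranked by Pearson's r of log2 CPM, centered on the mean of each line, over 24 libraries and 10152 genes, as a description, since libraries of one treatment share that treatment and HMOX1 was chosen for its rise under NIF. They were ALAS1, the rate-limiting enzyme of heme synthesis, at an r of 0.97, then PEA15 and UGDH, the UDP-glucose dehydrogenase, at 0.92, and EPHX1, a microsomal epoxide hydrolase, and ARC at 0.91. ALAS1 had an r of 0.98 in the 12 SUM159 and 0.97 in the 12 SW620 libraries. The 12 libraries of a line share that line, and within it TFRC had an r of 0.90 with FTH1 in SUM159 and of -0.94 in SW620. For TFRC the most like genes were ABCC4, a drug efflux pump, at 0.95, ACLY, the ATP citrate lyase, at 0.94, DNMT1, the maintenance DNA methyltransferase, and TXLNG at 0.93, and MCM4, a subunit of the replicative helicase, at 0.92.

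ALAS1 belongs to the wider list of heme synthesis, and was higher under NIF in every comparison tested. It was at 82.3 to 86.6 CPM under DMSO and 111 to 115 CPM under NIF in SUM159 ALDHneg cells, with a log2 fold change of 0.42 (SE 0.06, adjusted p = 0.00216). In SW620 the value was 0.57 in ALDHbr cells (adjusted p = 1.28e-06) and 0.45 in ALDHneg cells (adjusted p = 1.07e-05). In SUM159 ALDHbr cells it was 0.45, as a description. Of 8 heme synthesis genes tested 1 was higher and 0 lower in SUM159 ALDHneg, 2 higher and 2 lower in SW620 ALDHbr, and 3 higher and 2 lower in SW620 ALDHneg cells. Beside the all-gene shares of 21.4% and 21.9% in SW620 ALDHbr and 22.3% and 22.7% in SW620 ALDHneg cells, such SW620 counts under NIF in lists of at most 9 genes, here and in the lists that follow, show nothing particular to a list. In SUM159 ALDHneg cells the shares were 1.1% and 2.2%, and no list was tested as a set. The largest change in SW620 was that of FECH, the ferrochelatase that inserts iron into the ring, at 0.87 in both populations (adjusted p = 4.73e-08 and 3.50e-08), while in SUM159 ALDHneg cells it was not called and the difference between the lines was 0.98 (adjusted p = 2.18e-08).

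Of the heme transporters and heme-binding regulators, 2 of 7 were higher and 1 lower in SW620 ALDHbr cells and 2 higher and 3 lower in SW620 ALDHneg cells, and in SUM159 ALDHneg cells 1 of 8 was higher and 1 lower. The gene with the largest change was ABCB6, a porphyrin transporter, in SW620 (0.97 and 1.03, adjusted p = 7.47e-09 and 3.30e-09), and FLVCR2, a transporter of the heme exporter family, in SUM159 ALDHneg cells (-0.42, adjusted p = 0.0144). BACH1 was higher under NIF in SW620, at 29.4 ± 6.89 CPM under DMSO and 50.8 ± 5.98 CPM under NIF in ALDHbr cells and at 38.2 ± 1.62 and 56.5 ± 1.85 CPM in ALDHneg cells (SD, n = 3), with log2 fold changes of 0.79 (adjusted p = 0.000181) and 0.56 (adjusted p = 0.00225). In SUM159 ALDHneg cells BACH1 did not pass, at 12.4 ± 2.45 CPM under DMSO and 14.1 ± 2.19 CPM under NIF, and it was higher in SW620 than in SUM159 under DMSO by 1.62 on the log2 scale (SE 0.14, adjusted p = 1.89e-10). Under DMSO the ALDHneg cells of SW620 had less HMOX1 RNA and more BACH1 RNA than those of SUM159. Within SW620 both genes were higher under NIF than under DMSO. A link between the genes was not tested. Of all genes 38.5% were higher and 42.7% lower in SW620 in that comparison of the lines.

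Iron uptake and reduction had 0 of 8 genes called in SUM159 ALDHneg cells by the edgeR test (2 at an unadjusted p under 0.05), and 2 higher and 2 lower of 9 in SW620 ALDHbr and 3 higher and 3 lower in SW620 ALDHneg cells. STEAP1, of the metalloreductase family, had the largest change in SW620 ALDHbr cells (0.84, adjusted p = 7.11e-07), and TFR2, the second transferrin receptor, in ALDHneg cells (1.21, adjusted p = 0.00229) on 18 to 48 counts per library. Among iron regulators, chaperones and genes of ferritin turnover 3 of 6 were higher and 1 lower in both SW620 populations, and 0 higher and 1 lower in SUM159 ALDHneg cells. FBXL5, the iron-sensing subunit of the ligase that degrades iron regulatory protein 2, had the largest change in SW620 (1.04 and 1.12, adjusted p = 1.89e-08 and 5.85e-09), and ACO1, which is iron regulatory protein 1 when it holds no cluster, was the one gene lower in all 3 (-0.27 in SUM159 ALDHneg, adjusted p = 0.0230, and -0.32 and -0.34 in SW620).

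Of the genes for export and its hormone, CP, the ferroxidase ceruloplasmin, was lower under NIF in SW620 (-3.10 and -1.85) on 0 to 13 counts per library. It passed the filter on low counts there only through DMSO libraries, where it is higher, so these falls are given as a description. In SUM159 ALDHneg cells 1 gene of this list was tested and not called. Of 8 genes of mitochondrial iron and iron-sulfur clusters 1 was higher and 1 lower in SUM159 ALDHneg, 2 higher and 2 lower in SW620 ALDHbr, and 3 higher and 3 lower in SW620 ALDHneg cells. SLC25A28 (mitoferrin 2), a mitochondrial iron importer, was higher in all 3 (0.33, 0.37 and 0.32, adjusted p = 0.0241, 0.00102 and 0.00237). Its relative SLC25A37 (mitoferrin 1) was lower in SUM159 ALDHneg cells (-0.32, adjusted p = 0.0371) and higher in SW620 (0.25 and 0.29), a difference of 0.61 between the lines (adjusted p = 0.000109). GLRX5, a glutaredoxin of cluster assembly, had the largest change of this list in SW620 (-0.55 and -0.50, adjusted p = 3.38e-05 and 6.90e-05).

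Between ALDHbr and ALDHneg cells under DMSO calls were spread over the wider lists, and no list was tested as a set. Of all genes 10.7% were higher and 12.3% lower in SUM159 ALDHbr cells, and 5.45% and 5.86% in SW620 ALDHbr cells. In SUM159 ALDHbr cells 4 of 6 iron regulators were higher and 1 lower, led by ACO1 (0.36, adjusted p = 0.00045), and 0 of 8 heme synthesis genes were higher and 3 lower. SLC39A8, a zinc and iron importer, led iron uptake (0.64, adjusted p = 3.57e-06; 1 of 8 higher and 1 lower), and ISCU, the scaffold of cluster assembly, led the mitochondrial list (0.29, adjusted p = 0.00143; 2 of 8 higher). HPX, the heme carrier hemopexin, was lower (-1.78), at 4 to 8 counts per library in ALDHbr and 18 to 24 in ALDHneg cells. CP was higher (1.46), at 14 to 17 and 2 to 10 counts. Each passed the filter on low counts chiefly through the population where it is higher. The filter thus favored the direction of both differences, which are given as a description. In SW620 ALDHbr cells 3 of 9 uptake genes were lower, led by STEAP2 (-0.60, adjusted p = 0.00954), and HEPH, the ferroxidase hephaestin, was higher (0.73, adjusted p = 0.00114). FLVCR2 (-0.45, adjusted p = 0.0180), SLC25A37 (-0.25, adjusted p = 0.0252) and ACO1 (0.18, adjusted p = 0.0492) were the single calls of their lists, and 0 of 8 heme synthesis genes passed (3 at an unadjusted p under 0.05).

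Between the lines, in ALDHneg cells under DMSO, 0 of 8 heme synthesis genes were higher and 5 lower in SW620, led by UROD (-1.35, adjusted p = 1.49e-13), and 2 of 9 uptake genes were higher (1 of them TFR2, which is in no SUM159 fit) and 5 lower. Of all genes in that fit 38.5% were higher and 42.7% lower in SW620. HEPH, at 330 to 429 counts per library in SW620, and TFR2, at 18 to 24, had at most 1 count in a SUM159 library, and ACO1 was lower (-0.78, adjusted p = 7.41e-12). NFS1, the cysteine desulfurase of cluster assembly, led the mitochondrial list (0.88, adjusted p = 2.24e-10; 3 of 8 higher and 4 lower). Of the heme transporters 3 of 8 were higher and 4 lower, and of the iron regulators 2 of 6 were higher and 1 lower. Among those transporters HPX, which is in no SW620 fit, entered only through SUM159, where it is high. It had 18 to 24 counts per library in SUM159 and 0 to 3 in SW620, so its part in these counts is no result. The response of ALDHneg cells to NIF differed between the lines most, in their lists, for ABCB6 (0.99, adjusted p = 6.41e-06), STEAP1 (0.98, adjusted p = 2.64e-06) and FBXL5 (0.86, adjusted p = 1.15e-06), each higher in SW620.

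**Figure D5:**
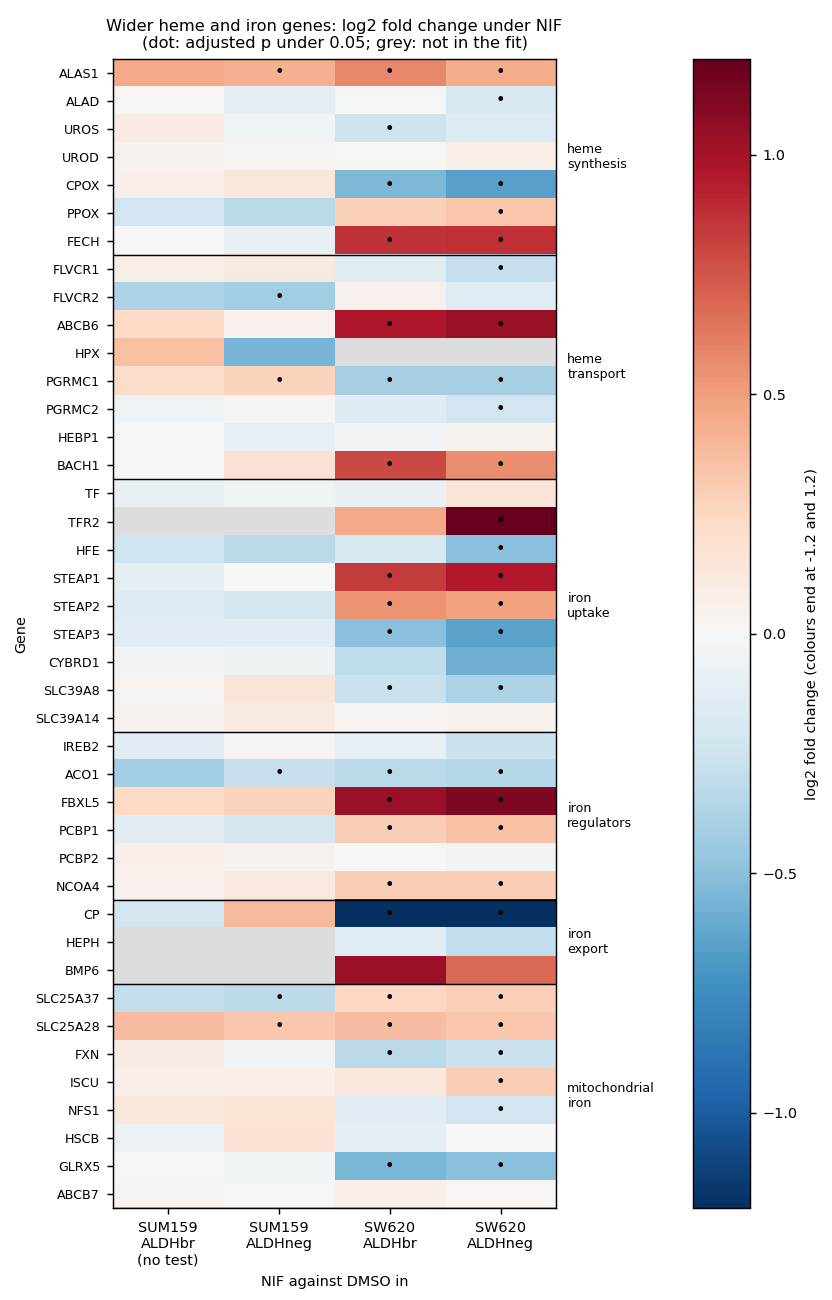
Rows are genes of 6 wider lists of heme and iron genes (1 gene, and genes in no fit, are not drawn) and columns the 4 comparisons of NIF with DMSO, with colour for the log2 fold change (ending at -1.2 and 1.2), a dot for an adjusted p under 0.05 and grey where a gene was not in the fit. ALAS1 and SLC25A28 are red and ACO1 blue in all 4 columns, while FECH, ABCB6 and FBXL5 are strongly red in the SW620 columns alone.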

How the data were processed

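RNA was measured in both sorted populations of either line under NIF or DMSO, in 24 libraries of 8 groups, made with a stranded total RNA kit from cells of 3 independent experiments. The authors deposited raw counts per gene (28307 genes, 4579 of them without any count), named by symbol and Entrez number; the submitters' processing notes name STAR, FastQC and GRCh38, and the counting tool and its settings are not given in the sources used here. Totals ran from 30253187 to 43127948 counts.

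Tests used edgeR 4.0.16 in R 4.3.3 (filterByExpr by group, TMM, quasi-likelihood F test, Benjamini-Hochberg adjustment over all genes tested, threshold 0.05), on 12 libraries for comparisons within a line and 24 between lines. CPM use 1 TMM scaling of 24 libraries, and log2 CPM a prior count of 2. Replicates of a group differed by more than sampling noise in all 24 pairs. The replicate number was checked as a pairing by the correlation of deviations from group means: it passed 0.1 in 18 of 18 SUM159 pairs (0.125 to 0.451), so blocked values are given for SUM159.

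The 10 members, the 6 wider lists and the markers were chosen with earlier results of these data known. Named were all members, in each wider list and comparison the called gene of largest change, BACH1, and the 5 genes most like HMOX1 and TFRC; CA9, KLF2, FECH and SLC25A28 beyond that rule, and other genes compared between lines, were named after their values were seen, and 1 gene under the rule is not reported here. As alternatives, each library was left out, the replicate number was a block, the fit held only the compared groups or all 24 libraries, the filter was dropped or set at 10 counts in every library, scaling was by library size or RLE, and DESeq2 1.42.0 replaced edgeR. The steps were tested on simulated counts. Transcript lengths and hairpins came from GENCODE release 44, loci and promoter windows from RefSeq (GRCh38.p14), where HMOX1 and FTH1 had no window.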

Additional observations from a re-analysis of the deposited data

Results flagged for a closer look

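The response of ALDHneg cells to NIF differed between the lines for 6 members by the interaction term of the edgeR fit over 24 libraries. As SW620 minus SUM159 on the log2 scale, the difference was 1.26 for FTH1 (adjusted p = 2.18e-08), 0.86 for FTL (adjusted p = 7.27e-05), 0.76 for SLC48A1 (adjusted p = 7.28e-06), -0.33 for HMOX2 (adjusted p = 0.0367), -0.45 for TFRC (adjusted p = 0.00151) and -0.38 for SLC11A2 (adjusted p = 0.0148). In ALDHbr cells TFRC was higher under NIF in each SUM159 library than in any DMSO library of that line and lower in each SW620 library, a difference in response of -0.50 that was not tested, since the SUM159 ALDHbr contrast chose the group.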

How the results depend on the processing

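The number of members called under NIF stayed at 8 in SW620 ALDHneg cells under every alternative, and between 6 and 8 in SW620 ALDHbr cells. In SUM159 ALDHneg cells 3 became 6 with DESeq2, 5 without a filter, 6 with the replicate block, and 1 to 4 with a library left out. Over all genes 1.1% were higher and 2.2% lower in the main fit, 2.32% and 3.44% with DESeq2, and 6.1% and 7.08% with the block. Without a filter 223 and 417 of 23037 genes were called. With a library left out 0.288% to 1.44% were higher and 0.932% to 2.38% lower. Between ALDHbr and ALDHneg cells under DMSO, 2 in SUM159 became 1 with library-size scaling, 5 with the replicate block, 0 with the compared groups alone and 0 to 2 with a library left out. Over all genes 17.9% were then higher and 18.2% lower with the block, and 7.63% to 10% and 9.12% to 10.7% with a library left out. The 1 in SW620 became 2 with DESeq2, 2 without a filter, 2 with all 24 libraries, 0 with the compared groups alone and 0 to 4 with a library left out. Over all genes 7.41% and 8.31% were called there with DESeq2, and 2.17% to 18.6% and 2.68% to 20.2% with a library left out. With the compared groups alone 1263 and 1612 of 14438 genes were called in SUM159 and 336 and 393 of 13549 in SW620. The cause was not tested. In SW620 the replicate numbers were only shared (1 of 18 correlations over 0.1, from -0.278 to 0.214), and the block left 1 call between its populations and ended that of SLC40A1 under NIF in ALDHbr cells (adjusted p = 0.0609). Among the members the block changed no call beyond these and the SUM159 and line calls given in the report, and it was not run for single genes of the wider lists.

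Over all alternatives 1069 values kept their direction and side of the threshold, 49 lost the call, 25 gained one and 23 changed sign. No called value changed sign. In the SW620 difference of responses, library-size scaling turned HMOX2 to 0.00784 and BLVRA to 0.0227, and leaving out 1 library moved HMOX2 from -0.106 to 0.0408, BLVRA from -0.200 to 0.180, TFRC from -0.0335 to 0.124 and SLC11A2 from -0.149 to 0.00642. Leaving out 1 library also moved BLVRA under NIF in SW620 ALDHbr cells from -0.0751 to 0.295 and, between SW620 populations, HMOX1 from -0.0362 to 0.108, SLC11A2 from -0.159 to 0.0037 and SLC48A1 from -0.0647 to 0.0043. The difference between lines in response gave 7 calls with the block and 4 to 6 with a library left out. Over all genes 13.7% were higher and 12.4% lower with the block, and 10.3% to 11.3% and 8.52% to 10.7% with a library left out.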
